A study of Mus musculus with 23 samples.

Results

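Open chromatin of the upper jaw mesenchyme at embryonic day 11.5 was described by the regions that were called in every sample of that stage. Peaks of the 3 peak lists that overlapped by at least 1 bp on the 19 autosomes and chromosome X were merged into 50307 regions. Of these, 5076 (10.1%) held a peak of all 3 lists, and they are the regions described here. Because the list of sample 1 was short, the 14264 regions with a peak in the lists of both sample 2 and sample 3 are given beside them. Tissue was taken from wild-type C57BL/6 embryos at embryonic day 11.5 by dissecting the maxillary prominence, with no treatment, no transgene and no control group. The ectoderm was removed after Dispase II digestion, so that mesenchymal cells entered the assay for transposase-accessible chromatin (ATAC-seq), in which the Tn5 transposase inserts sequencing adapters into open DNA. There were 3 biological samples in 5 library runs, since sample 3 had 3 runs that share 1 list. How many embryos were pooled is not stated. Other stages of the series were not used.

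The maxillary prominence forms the upper jaw, the sides of the upper lip and the palatal shelves, and most of its mesenchyme descends from cranial neural crest. Transcription factors of the Msx, Dlx, Alx, Pax, Prrx and Lhx families pattern this mesenchyme under ligands of the Shh, Bmp, Fgf, Wnt and endothelin pathways. Open regions lie mainly at promoters, where the transcription machinery assembles, and at distal elements such as enhancers. Promoters of broadly expressed genes are often open in most cell types, while many enhancers are open in few.

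Promoter sequences are shown for 3 genes whose start lay in a region called in all 3 lists, and for 2 mesenchyme genes whose start lay in a region called in lists 2 and 3 but not in list 1. Pdcd10 encodes a cerebral cavernous malformation protein and had the strongest region, Opn3 encodes an opsin and had another of the strongest, and Tgfbr1 encodes the type I receptor for transforming growth factor beta. Prrx1 and Twist1 encode a homeodomain and a basic helix-loop-helix factor of cranial mesenchyme. Each window runs from 250 bases before to 50 bases after a RefSeq start on GRCm38.p6 (the mm10 build of the peak lists), 5′ to 3′ along the gene. Capitals mark GGGCGG (its reverse CCGCCC), the core letters of sites for Sp and KLF factors, and CCAAT (its reverse ATTGG), those of NF-Y. Their coordinates are chr3:75556803-75557102 on the minus strand for Pdcd10, chr1:175692583-175692882 on the minus strand for Opn3, chr4:47352972-47353271 on the plus strand for Tgfbr1, chr1:163313601-163313900 on the minus strand for Prrx1, and chr12:33957421-33957720 on the plus strand for Twist1.
Pdcd10: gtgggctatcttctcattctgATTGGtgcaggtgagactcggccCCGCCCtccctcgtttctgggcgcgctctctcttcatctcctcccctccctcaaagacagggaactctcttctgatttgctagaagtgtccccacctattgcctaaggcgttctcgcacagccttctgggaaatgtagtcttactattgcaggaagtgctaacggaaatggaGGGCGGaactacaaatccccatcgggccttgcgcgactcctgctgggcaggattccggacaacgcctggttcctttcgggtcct
Opn3: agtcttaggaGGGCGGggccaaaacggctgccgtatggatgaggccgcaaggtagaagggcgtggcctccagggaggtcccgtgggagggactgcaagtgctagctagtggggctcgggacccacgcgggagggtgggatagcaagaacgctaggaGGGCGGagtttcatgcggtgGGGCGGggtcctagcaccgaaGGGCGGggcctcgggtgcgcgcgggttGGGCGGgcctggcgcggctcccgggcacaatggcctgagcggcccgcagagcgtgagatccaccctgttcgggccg
Tgfbr1: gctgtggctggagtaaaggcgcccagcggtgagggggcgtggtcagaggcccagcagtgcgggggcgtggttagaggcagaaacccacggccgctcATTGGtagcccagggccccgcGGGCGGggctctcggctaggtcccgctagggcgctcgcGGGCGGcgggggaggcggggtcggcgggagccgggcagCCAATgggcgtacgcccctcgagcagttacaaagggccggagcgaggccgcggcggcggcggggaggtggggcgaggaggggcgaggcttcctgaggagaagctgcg
Prrx1: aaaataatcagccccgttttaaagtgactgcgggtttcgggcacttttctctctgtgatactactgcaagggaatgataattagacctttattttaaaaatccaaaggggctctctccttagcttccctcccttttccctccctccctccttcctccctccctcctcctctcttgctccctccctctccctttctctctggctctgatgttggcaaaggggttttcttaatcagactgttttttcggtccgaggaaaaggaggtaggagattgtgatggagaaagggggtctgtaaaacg
Twist1: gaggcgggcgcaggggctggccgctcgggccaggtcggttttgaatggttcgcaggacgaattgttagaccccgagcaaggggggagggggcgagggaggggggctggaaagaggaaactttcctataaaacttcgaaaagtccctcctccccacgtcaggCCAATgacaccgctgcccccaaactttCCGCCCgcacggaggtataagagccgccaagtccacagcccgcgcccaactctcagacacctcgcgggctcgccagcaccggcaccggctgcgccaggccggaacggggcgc

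The windows of Pdcd10 and Tgfbr1 had a GC content of 56.0% and 74.7%, with that of Opn3 between them. Twist1 had 66.0%, with 1 match to each motif. The Prrx1 window had 47.7% and held neither set of letters.

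The 3 lists differed greatly in length. List 1 held 5682 peaks over 1.91 Mb, list 2 held 24908 over 10.9 Mb, and list 3 held 41457 over 9.11 Mb. All 3 ended at nearly the same threshold: the lowest −log10 q was at most 1.32 in each. Sample 1 therefore stands apart and sets how many regions can be shared. Of the regions of list 1, 92.0% were called in all 3 lists, against 20.4% of those of list 2 and 12.8% of those of list 3. Only 4.17% of the regions of list 1 were in that list alone, against 41.9% and 63.8% in lists 2 and 3. Depth is unknown because no read counts came with the peaks, and its part in these differences was not tested.

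**Figure D1:**
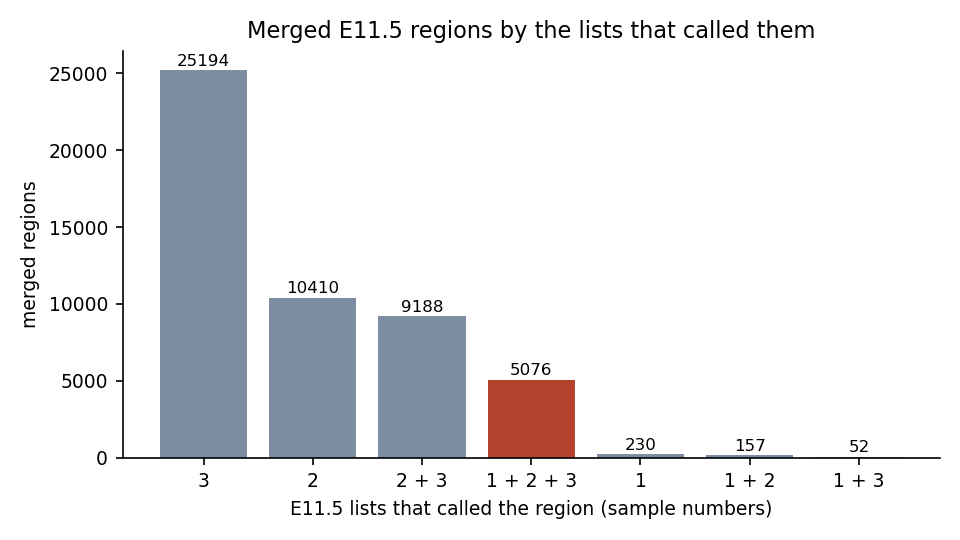
Bars give the number of merged E11.5 regions (y axis) for each combination of sample lists that called them (x axis). Regions called in all 3 lists (5076, red) are outnumbered by those in list 3 alone (25194), list 2 alone (10410) and lists 2 and 3 only (9188), while list 1 adds few of its own (230).

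Fold enrichment, the authors' ratio of the signal at a peak summit to its local background, was used only within a list. In list 1 the peaks of shared regions had a median fold of 5.22, against 3.98 for its other peaks. The medians were 8.34 against 4.59 in list 2 and 5.33 against 3.04 in list 3. The shared peaks were thus the stronger ones in every list, and in the longer lists they stood near the top: their median rank lay at 12.3% of list 2 and 7.70% of list 3 from the strongest peak, but near the middle of list 1. The order of strength among the 5076 regions was similar between lists, with a Spearman correlation of fold of 0.648 between lists 1 and 2, 0.651 between lists 1 and 3, and 0.753 between lists 2 and 3. These correlations are across regions, which are not independent replicates. Summits also lay close together: the median gap was 54 bp between lists 1 and 2, 53 bp between lists 1 and 3, and 40 bp between lists 2 and 3.

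How often list 1 also called a region followed its strength in list 2. Among regions called in lists 2 and 3, list 1 held 3.92% of the 2346 with a −log10 q below 5 in list 2. It held 13.8% of the 4216 from 5 to 10, 38.3% of the 4356 from 10 to 20, 77.2% of the 2639 from 20 to 40, and 98.3% of the 707 at 40 or more. A region absent from list 1 was therefore most often a weak one in list 2. In a bulk assay, a region open in few cells and one partly open in many cannot be told apart.

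Regions called in all 3 lists spanned a median of 748 bp, with an interquartile range of 582 to 942 bp and extremes of 160 and 3041 bp. Together they covered 3.98 Mb. Regions in lists 2 and 3 had a median of 555 bp, and regions of a single list 153 bp. Merging peaks of 3 lists widens a region, so the peaks themselves were compared within each list. The peaks of shared regions had a median width of 301 bp against 186 bp for other peaks in list 1, 698 against 294 bp in list 2, and 420 against 139 bp in list 3.

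Shared regions lay mostly at the edges of genes. Distance was taken from the strongest summit to the nearest boundary (start or end) of 21627 protein-coding genes, because strand was known for only 79.9% of them, and a region within 1 kb was classed as near a gene. Of the 5076 regions, 3899 (76.8%) were near a gene, the median distance was 141 bp, and 42.0% lay within 100 bp. Regions in lists 2 and 3 were near a gene in 60.4% of cases, those in lists 2 and 3 but not list 1 in 51.4%, and those in a single list in 12.8%. The median distance was 361 bp, 879 bp and 19009.5 bp in these classes.

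**Figure D2:**
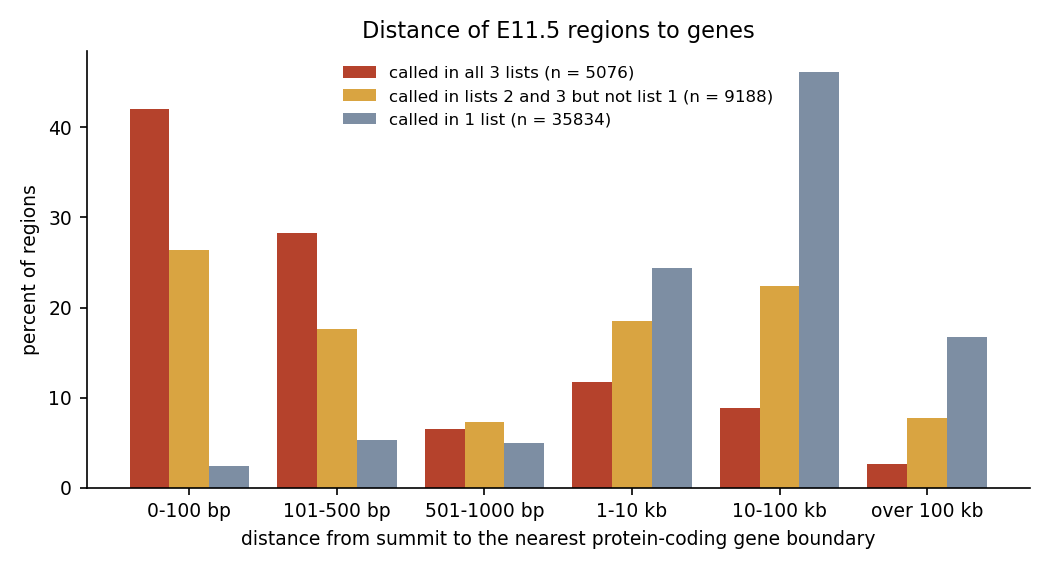
Bars give the percent of regions (y axis) in each class of distance from the summit to the nearest protein-coding gene boundary (x axis) for regions called in all 3 lists, in lists 2 and 3 but not list 1, and in 1 list. The share within 100 bp was 42.0% in the first class, 26.4% in the second and 2.40% in the third.

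The comparison was repeated within each list, so that the length of a list is the same on both sides. In list 1, 76.7% of the peaks in shared regions were near a gene, against 29.1% of its other peaks. The shares were 76.6% against 32.3% in list 2, and 76.6% against 23.5% in list 3. The difference was 48.4 ± 4.44 percentage points (SD, n = 3 lists) and had the same direction in 3 of 3 lists. An exact two-sided sign-flip permutation test over the 3 lists gave p = 0.25, the smallest value that 3 lists allow, so this design cannot pass 0.05. The 3 lists share the regions that define the members, so these 3 differences are not independent.

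Of the 5076 regions, 3690 (72.7%) lay within 1 kb of a start of a gene with a known strand, and 20 (0.394%) within 1 kb of an end only. Starts inside genes were counted here, so the 3690 are not all among the 3899 regions near a boundary. For the 3617 regions placed relative to a start, the median summit lay 48 bp upstream of it, 68.3% of summits were upstream, and 71.4% lay within 150 bp on either side. In all, 632 regions (12.5%) had boundaries of 2 or more genes within 1 kb, as at the divergent promoter of Pdcd10 and Serpini1, which encodes neuroserpin.

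**Figure D3:**
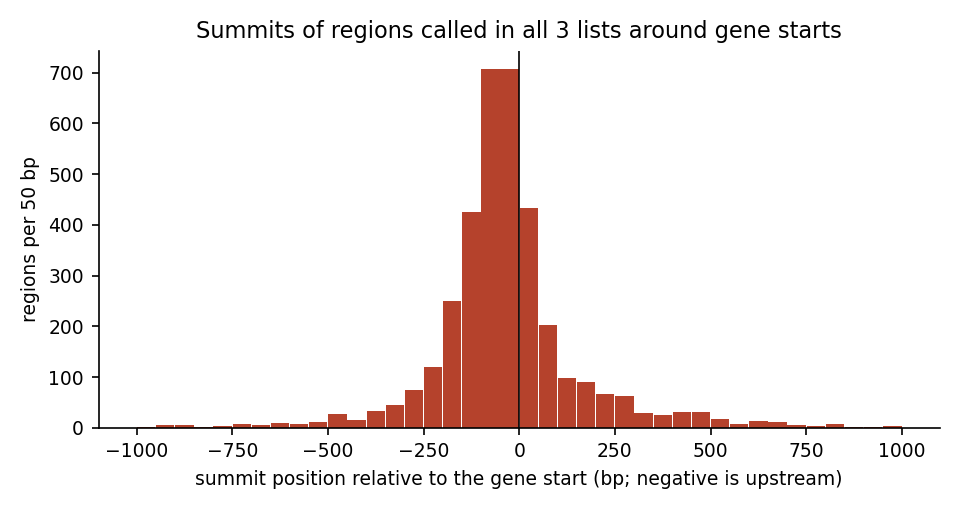
Bars count regions called in all 3 lists per 50 bp (y axis) by the position of the summit relative to the nearest gene start (x axis, negative is upstream), for the 3617 regions placed relative to a start. The summits peak just upstream of the start, with a median 48 bp upstream.

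The 1177 regions that were not near a gene were fewer and slightly narrower, with a median span of 683 bp against 763 bp for those near a gene. Of these, 793 (67.4%) lay inside a gene, and 442 (37.6%) lay within 1 kb of a RefSeq start that was not at an outer gene boundary. With such starts counted, 85.5% of the shared regions were near a gene boundary or start. Beyond 10 kb from any boundary lay 581 regions (11.4%), and beyond 100 kb lay 133 (2.62%), of which 16 were within 1 kb of such a start. Strength and position went together: 92.0% of the 100 strongest regions, ranked by their worst rank over the 3 lists, were near a gene, and 87.6% of the 1000 strongest.

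The strongest region, by its worst rank over the 3 lists, lay between Pdcd10 and Serpini1 at chr3:75556598-75557606. Its folds were 11.4, 11.7 and 14.9 in lists 1, 2 and 3, where it ranked 2, 3 and 2. The region at Opn3 (chr1:175692135-175693266) had folds of 9.80, 12.9 and 12.9, and ranked 7, 1 and 5. A region shared by Zfp654, which encodes a zinc finger protein, and Cggbp1, which encodes a CGG repeat binding protein, ranked first in list 3 with a fold of 17.9. The others among the 10 strongest lay at Garem1 (an adaptor of growth factor receptor signalling), Zbtb20 (a zinc finger repressor), Hspa13 (a chaperone of the Hsp70 family), Dcbld2 (a membrane receptor), Fh1 (fumarate hydratase of the citric acid cycle), Catspere2 (a sperm cation channel subunit) and Sel1l (endoplasmic reticulum protein degradation). All 10 were within 0.367 kb of a gene boundary. None of these genes belongs to the lists of jaw patterning factors.

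High folds also occurred beyond 10 kb from a gene boundary. The strongest such region lay inside Lrif1, which encodes a nuclear receptor interacting factor, with folds of 10.3, 13.8 and 17.1 in lists 1, 2 and 3. It was 14.9 kb from a boundary but 33 bp from a RefSeq start inside the gene, and that of Tiprl likewise lay 77 bp from one. Another lay 590 kb from its nearest gene, F2rl3, with folds of 7.98, 11.9 and 10.1. A region inside Stard13, which encodes a GTPase activating protein, lay 59.6 kb from a boundary with folds of 11.5, 12.9 and 11.4. The table of starts does not cover every gene, so an unlisted start cannot be told apart from a distal element.

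The base composition of promoters differed between windows with and without a peak. It differed little between windows in shared regions and those in lists 2 and 3 only. Windows of RefSeq promoters were held for 17273 of the genes (21044 windows), including 82.7% of the genes with a boundary within 1 kb of a shared region. The median GC content was 63.0% in the 4448 windows that overlapped a shared region, 62.0% in the 4479 that overlapped a region of lists 2 and 3 but not list 1, 49.7% in the 10503 with no peak, and 56.7% in all windows. GGGCGG (either strand) was found in 73.8% of windows in shared regions, 67.7% of those in lists 2 and 3 only, 24.3% of those with no peak and 46.7% of all windows. The part of GC content in that order was not tested.

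CCAAT on either strand followed another order, with 47.3% of windows in shared regions, 35.7% in lists 2 and 3 only, 37.0% with no peak and 38.5% of all windows. CCGGAAG, core letters of ETS factor sites, was found in 20.1%, 20.6%, 4.13% and 11.7% of the same sets. The TATA box letters TATAAA were found in 4.38%, 6.18%, 19.6% and 12.7%, and the homeodomain letters TAATTA in 1.73%, 1.96%, 6.87% and 4.47%. GCATGCGC, letters of NRF1 sites, was found in 5.96%, 6.65%, 1.22% and 3.54%, AAGATGGC of YY1 sites in 5.01%, 5.36%, 1.33% and 3.07%, and TGACGTCA of CREB and ATF sites in 3.69%, 4.15%, 0.857% and 2.26%. Of the 8 motifs searched on both strands, CCAAT alone differed in direction between the sets of open windows. Against windows with no peak, it was more frequent in shared regions and less frequent in lists 2 and 3 only. Both sets of open windows held less TATAAA and TAATTA than windows with no peak. These are matches of letters, not sites, and they were not tested.

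Each region was given to the gene with the nearest boundary within 100 kb. By this rule 4745 of 21627 protein-coding genes (21.9%) had a region called in all 3 lists, 48.6% had one in lists 2 and 3, and 71.1% had one in any list. A boundary within 1 kb of a region called in all 3 lists was found for 20.9% of genes, and within 1 kb of one in lists 2 and 3 for 43.8%. These shares are the background for the gene lists below. Most genes had 1 shared region: 4557 had 1, 179 had 2, 8 had 3 and 1 had 4. Genes with more regions were longer, with a median length of 14.1 kb for genes with none, 31.8 kb for those with 1 and 59.2 kb for those with 2 or more.

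Pecr, which encodes a peroxisomal enoyl-CoA reductase, had 4 shared regions, more than any other gene. At its boundary the folds were 8.19, 9.53 and 8.27 in lists 1, 2 and 3, and the other 3 regions lay outside the gene, from 3933 to 22654 bp away. Mef2c, which encodes a MADS box factor of neural crest derived bone and of muscle, had 3 shared regions. One lay inside the gene, 14.5 kb from a boundary and 5.14 kb from an internal RefSeq start, and the others lay outside it at 63.8 kb and 78.1 kb. The farthest had folds of 5.79, 10.4 and 5.61. Mef2c had 6 regions in lists 2 and 3, and none of any list lay within 1 kb of its outer boundaries.

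Fos, which encodes a subunit of the AP-1 factor, had 3 shared regions, at 305, 8672 and 18494 bp. Fzd4, which encodes a Frizzled receptor, had 1 at its own boundary (81 bp) and 2 inside a neighbouring gene. Zfp516 (a zinc finger factor), Chd9 (a chromatin remodeller), Tsc22d1 (a leucine zipper protein), Elf2 (an ETS factor) and Spdya (an activator of cyclin-dependent kinases) also had 3. Sertad2, which encodes a transcriptional coregulator, was the tenth by the tie rule, with 2 in all 3 lists and 8 in lists 2 and 3. In lists 2 and 3, 495 genes had 3 or more regions, led by Zfp516 with 9.

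Palate and upper jaw transcription factors were rarely among the genes with a shared region. Of 43, 4 (9.30%) had one, below the 21.9% of all genes, among them Eya1 and Nr2f2. In lists 2 and 3 the order turned, with 27 of 43 (62.8%) against 48.6%, and in any list 41 of 43 had a region. Thus leaving out sample 1 moves this list from below to above the share of all genes. Regions within 1 kb of the gene itself stayed below the background in both: 1 of 43 (2.33%) against 20.9% in all 3 lists, and 15 of 43 (34.9%) against 43.8% in lists 2 and 3. No test was made of these shares, since the list was chosen with results of these data known.

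Nr2f2, which encodes an orphan nuclear receptor, had a shared region 4956 bp from its boundary with folds of 5.35, 4.71 and 3.81. Eya1, which encodes a coactivator of sine oculis homeobox factors, had one 1343 bp from its boundary with folds of 4.70, 3.64 and 3.52. Neither lay within 1 kb of a gene boundary, and in lists 2 and 3 the better placed was that of Nr2f2, at rank 10122 in list 2 and 8360 in list 3.

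A further 23 factors had a region in lists 2 and 3 but none in all 3 lists, among them Prrx1, Msx1, Msx2, Lhx6, Lhx8, Pax9, Dlx1, Dlx2, Twist1, Tfap2a, Osr1, Osr2, Shox2, Tbx3, Meis1, Meis2, Six2, Foxd1, Foxd2, Nr2f1 and Meox2. Nr2f1 had 4 such regions. The remaining 16 had none in lists 2 and 3. Of these, 14 had a region elsewhere among the lists, among them Prrx2, Alx1, Alx4, Barx1, Pax3, Tfap2b, Tbx2, Tbx15, Pitx1, Foxf1, Foxf2, Foxc1 and Mn1. Tbx22 and Foxc2 had no region in any list.

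The regions of these factors had lower median folds than those of all genes. The 51 regions of the 43 factors in lists 2 and 3 had a median fold of 4.30 in list 2 and 3.36 in list 3, against 6.27 and 4.26 for the 13422 regions of all protein-coding genes. List 1 also called 4 of the 51 (7.84%), against 36.8% of the 13422. By −log10 q in list 2, 19 of the 51 lay below 5, 18 from 5 to 10, 13 from 10 to 20, 0 from 20 to 40 and 1 at 40 or more, and list 1 held 1, 1, 1, 0 and 1 of them. Fewer lay near a gene, 17 of 51 (33.3%) against 64.2%. A check of GC content over this list is void, because promoter windows were held for only 25 of its 43 genes.

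**Figure D4:**
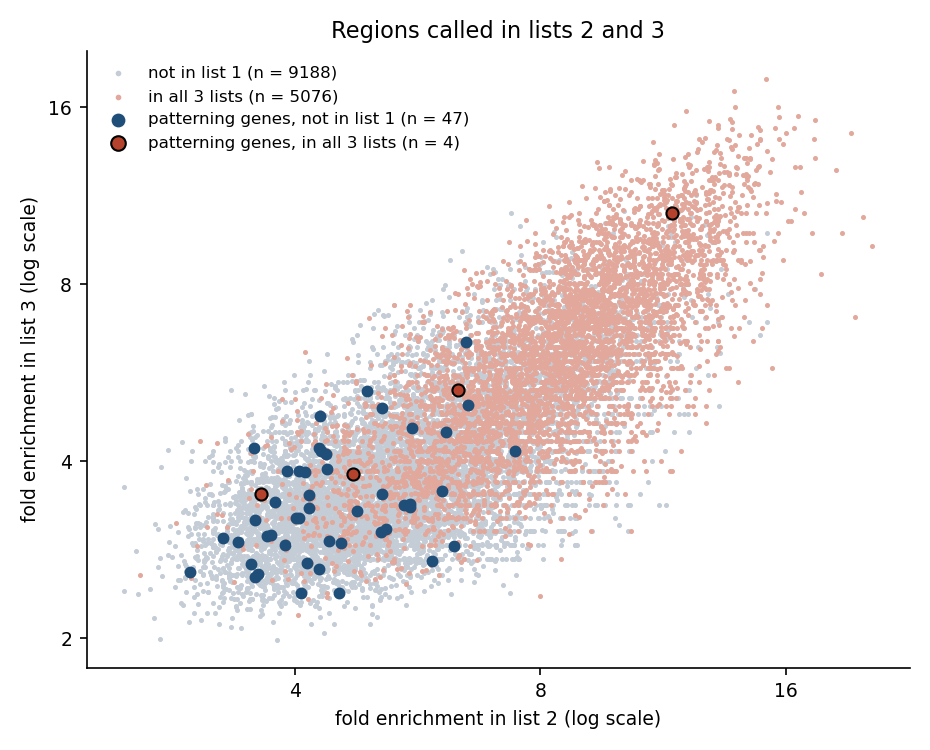
Each point is a region called in lists 2 and 3, with its fold enrichment in list 2 (x axis, log scale) and in list 3 (y axis, log scale); larger points are regions given to palate and upper jaw transcription factors. Of those 51 regions, 4 were also in list 1, and most lie in the lower left of the cloud, with medians of 4.30 and 3.36.

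Of the 4 markers given for this mesenchyme, none had a region in all 3 lists, against 21.9% of all genes. With only 4 genes, this share was not tested. Prrx1 had 1 region in lists 2 and 3, with folds of 4.41 and 2.93, and it overlapped the promoter window printed above, although it lay 1682 bp from the outer boundary of the gene. Lhx8, which encodes a LIM homeodomain factor needed for palate closure, had 3, of which 1 lay 16 bp from the boundary with folds of 3.74 and 3.00. The other 2 were 34446 and 36951 bp away. Pax9, which encodes a paired box factor of palate and teeth, had 1 region 10561 bp outside the gene with folds of 5.11 and 3.52. Barx1, which encodes a homeodomain factor of the proximal jaw and the molars, had none in lists 2 and 3, though 7 regions of any list were given to it. Thus 3 of the 4 markers, against 48.6% of all genes, had a region in both longer lists, at modest folds. Twist1 was alike, with a region 434 bp from its boundary and folds of 4.29 and 4.78.

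Factors of the lower jaw had no shared region (0 of 8), and 2 of 8 had one in lists 2 and 3. Dlx5 and Dlx6, which set lower jaw identity, had 2 regions each in lists 2 and 3, with the highest fold at 6.06 in list 2 for Dlx6. Dlx3, Dlx4, Hand1, Hand2, Gsc and Nkx3-2 had none there. Hox genes, which are silent in the neural crest of the first arch, had no shared region either (0 of 29), against 21.9% of all genes. In lists 2 and 3, 2 of 29 (6.90%) had one, Hoxd1 among them. Of the Hox genes, 14 had no region in any list: Hoxa2, Hoxa5, Hoxa9, Hoxa10, Hoxb5, Hoxb9, Hoxc5, Hoxc8, Hoxc9, Hoxd4, Hoxd8, Hoxd10, Hoxd11 and Hoxd13. Their share stayed below the background of 48.6% with sample 1 left out, unlike that of the upper jaw factors; the difference between the 2 lists was not tested.

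**Figure D5:**
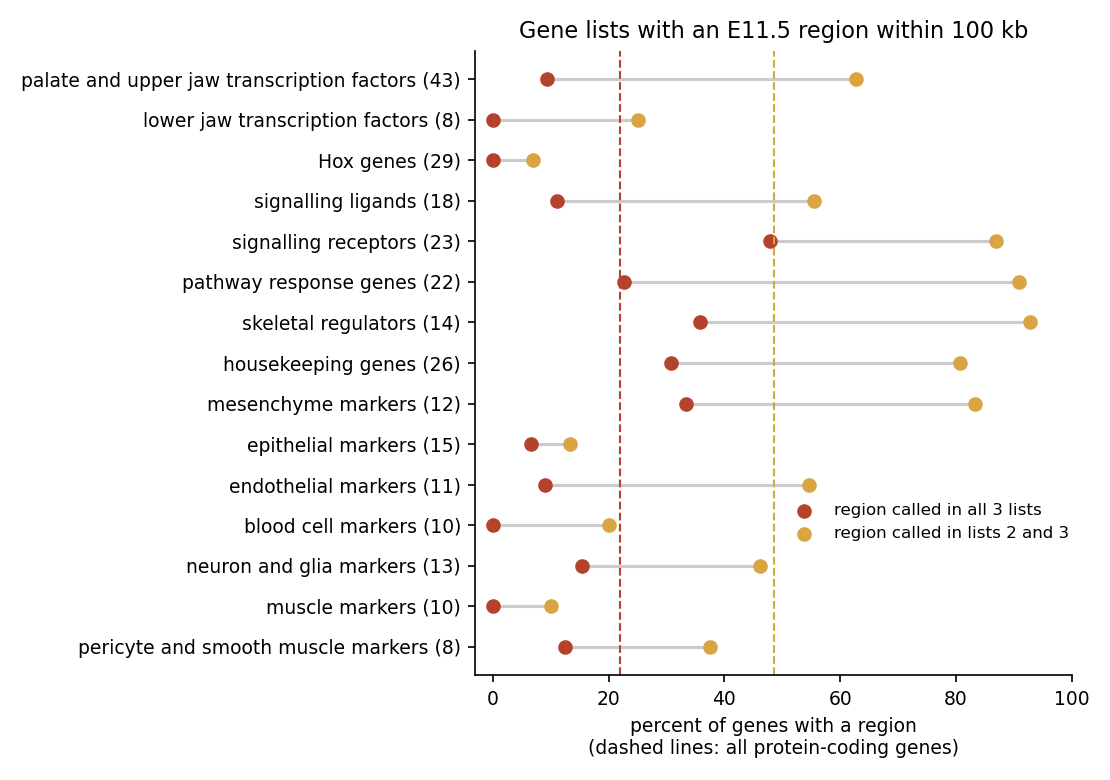
Points give the percent of genes (x axis) of each gene list (y axis, number of genes in brackets) with a region called in all 3 lists (red) or in lists 2 and 3 (yellow) within 100 kb, and dashed lines give all protein-coding genes (21.9% and 48.6%). Upper jaw factors lie left of the red line and right of the yellow one, while signalling receptors lie right of both.

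Signalling receptors were open more often than ligands. Of 23 receptors, 11 (47.8%) had a shared region, against 21.9% of all genes. In lists 2 and 3, 20 (87.0%) had one, against 48.6%. Of 18 ligands, 2 (11.1%) had a shared region and 10 (55.6%) had one in lists 2 and 3. Ligands were thus below the share of all genes in all 3 lists and above it in lists 2 and 3. Shared regions within 1 kb of an outer boundary were found at 7 receptors (30.4%) and 0 ligands, against 20.9% of all genes. In lists 2 and 3 these shares were 69.6% and 33.3%, against 43.8%. The difference between receptors and ligands was not tested.

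At Tgfbr1 the shared region (chr4:47352566-47353396) lay 205 bp from the gene boundary, with folds of 5.49, 8.07 and 6.16 in lists 1, 2 and 3. Cdon, which encodes a co-receptor for Shh, had a region 151 bp from its boundary with folds of 3.75, 7.59 and 4.88. Ednra, which encodes the endothelin receptor that directs jaw identity, had one 25 bp from its boundary with folds of 4.34, 5.64 and 5.60. The Bmp receptor genes Bmpr1a, Bmpr1b and Acvr1 each had a shared region within 0.457 kb of a boundary, and so had Tgfbr3 at 0.19 kb. Boc, a second Shh co-receptor, had its shared region 27.7 kb from a gene boundary. Rarb, a retinoic acid receptor, had one 90.3 kb outside the gene. Another shared region (chr14:16574925-16575750), with folds of 6.90, 7.40 and 5.66, overlapped a RefSeq promoter window inside Rarb, 145 kb from its outer boundaries, and so was not counted for any gene. Ptch1, the Shh receptor, and Pdgfra, the receptor for platelet-derived growth factor, had theirs inside the gene at 5.48 kb and 4.74 kb.

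Both ligands with a shared region had it far from the gene. For Fgf10, a growth factor that mesenchyme makes and epithelium receives, it lay 93.8 kb away with folds of 4.70, 5.15 and 3.20. For Pdgfc, a ligand of Pdgfra, it lay 29.5 kb away with folds of 5.06, 6.00 and 2.56. After these ligands the tie rule named Bmp2 and Bmp7, with 2 regions each in lists 2 and 3. Shh, Fgf8 and Edn1, ligands made by epithelium around this mesenchyme, had no region in any list.

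The genes listed under pathway response had a share near the background: 5 of 22 (22.7%) had a shared region, against 21.9% of all genes. The list also holds transcription factors that act within a pathway, and Gli2 and Gli3 of the Shh pathway were among these 5. In lists 2 and 3 the count was 20 of 22 (90.9%), against 48.6% of all genes. Within 1 kb it was 18 of 22 (81.8%), against 43.8%. Etv5, an ETS factor downstream of Fgf, had 2 shared regions, and the one 205 bp from its boundary had folds of 6.49, 8.69 and 8.22. Gli3, a transcription factor of the Shh pathway, also had 2, with folds of 5.55, 5.63 and 5.07 at its boundary. Etv1, an ETS factor related to Etv5, and Gli2, the other Gli factor with a shared region, followed with 1 each. All 22 genes had a region in some list.

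Skeletal regulators had a shared region in 5 of 14 (35.7%), against 21.9% of all genes. In lists 2 and 3 the count was 13 of 14 (92.9%), against 48.6%. None of these genes had a boundary within 1 kb of a shared region, against 20.9% of all genes. After Mef2c came Sparc (osteonectin of the bone matrix), Sox6 (a partner of Sox9 in cartilage) and Acan (the cartilage proteoglycan aggrecan), whose shared regions lay 8.44, 17.3 and 62.8 kb away. Trps1, a zinc finger factor of chondrocytes, was the other. Sox9, Runx2, Sp7 and Col2a1 had 1 region each in lists 2 and 3 and none in all 3.

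Housekeeping genes served as a reference for promoters that are open in most cells. Of 26, 8 (30.8%) had a shared region and 21 (80.8%) one in lists 2 and 3, against 21.9% and 48.6% of all genes. Within 1 kb of a boundary the counts were 7 (26.9%) and 20 (76.9%), against 20.9% and 43.8%. Vcp, Pgk1, Ywhaz and B2m led by the tie rule, each with 1 shared region, that of Ywhaz 10.4 kb from a boundary. At Gapdh the folds were 3.70, 5.86 and 4.53, and at Ppia 4.56, 6.23 and 5.47. Widely expressed genes were thus also without a shared region in most cases (18 of 26), as were 16882 of all 21627 protein-coding genes. Of the 4 given no region of any list, Rps18, Eef2 and Snrpd3 are named here; Rps18 and Snrpd3 had a boundary within 1 kb of a region in lists 2 and 3 that was nearer to another gene.

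Markers of cell types were used to check the labelled tissue. An open region is not expression, and regions of 1 gene can serve another. Of 12 mesenchyme markers, 4 (33.3%) had a shared region, against 21.9% of all genes. In lists 2 and 3, 10 (83.3%) had one, against 48.6%. At Vim, the intermediate filament of mesenchyme, the region 0.501 kb from the boundary spanned 1629 bp with folds of 6.09, 7.97 and 5.80. At Snai2, a factor of neural crest migration, a region 355 bp from the boundary had folds of 6.51, 8.96 and 6.73. Pdgfra and Zeb1, a repressor of epithelial genes, were the other 2.

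Of 15 epithelial markers, 1 had a shared region and 2 (13.3%) one in lists 2 and 3, and none had a boundary within 1 kb of either kind. The epithelial cell adhesion gene Epcam had 2 shared regions, at 22.4 and 64.5 kb. The other marker with a region in lists 2 and 3 was Grhl2, 1248 bp from its boundary with folds of 3.35 and 3.48. Cdh1 and Trp63 had none in lists 2 and 3, and Krt5, Krt14, Krt15 and Cldn6 had none in any list. Of 10 blood cell markers, 0 had a shared region and 2 one in lists 2 and 3, and of 10 muscle markers 0 and 1. The globin genes Hba-a1 and Hbb-bt, the myeloid genes Csf1r, Cd68 and Itgam, the muscle factor Myog and the smooth muscle actin Acta2 had no region in any list. Endothelial markers had 1 of 11 and 6 of 11, neuron and glia markers 2 of 13 and 6 of 13, and pericyte and smooth muscle markers 1 of 8 and 3 of 8. The background within 100 kb was 21.9% of all genes for shared regions and 48.6% for lists 2 and 3. Mesenchyme markers were thus above it in both sets, and epithelial, blood and muscle markers below it. These lists are short, so a few genes decide each share, and the differences were not tested. The place of mesenchyme markers above the background rests on the 100 kb rule. Within 1 kb of a boundary they had 2 of 12 (16.7%) against 20.9% in all 3 lists. In lists 2 and 3 they had 5 of 12 (41.7%) against 43.8%, so they were near the background in both. Epithelial markers had none within 1 kb in either set, and blood and muscle markers each had 0 and 1 of 10 (10.0%), below the background. Within 100 kb, the shares of endothelial markers (54.5%) and of neuron and glia markers (46.2%) in lists 2 and 3 were near the background of 48.6%. The share of other cells in the samples was not measured.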

How the data were processed

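ATAC-seq peak lists of 3 samples of maxillary mesenchyme at embryonic day 11.5 were used, 1 list per sample. Bowtie2, MACS2, deepTools 3.3.1 and the build mm10 are named in the submitters' processing notes. Per the labels, peak calling was paired-end and peaks in blacklisted regions were taken out. For read filters, the transposase offset and the caller's threshold, no setting is stated. Each deposited list gives positions, summits, a fold enrichment (a ratio), and −log10 p and −log10 q values, all the authors' own. Values were ranked and summarised within a list, and between lists only the order of fold was correlated. Without read counts, depth is unknown and no read-level interval can be given. The labels call the samples biological replicates.

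Peaks overlapping by at least 1 bp on chromosomes 1 to 19 and X were merged (1 peak of list 2 lay elsewhere), with pandas 2.3.3 and NumPy 2.4.6 in Python 3.11.15. Matplotlib 3.10.9 drew the plots. Merging and distances were tested on simulated data. Genes, starts and promoter windows came from RefSeq on GRCm38.p6. The gene table gives no strand, so distances planned from starts were taken from the nearest boundary, which misses starts inside genes, and starts were tried as alternatives. All 256 listed genes were found. Named were the 10 genes with most shared regions, the 10 regions with the best worst rank, the 4 given markers, transcription factors with 3 or more shared regions or none (Hox genes with no region in any list), and of the other lists the 4 genes with most shared regions and those with no region. Ties went by the count in lists 2 and 3, then by name. Other genes and distal regions were chosen after their values were seen. The regions described and the gene lists were chosen with earlier results of these data known. Some genes of the lists are not reported here by name. Lists of other stages were not used here.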

Additional observations from a re-analysis of the deposited data

How the results depend on the processing

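With only peaks at a −log10 q of at least 5, 2890 regions were called in all 3 lists, 82.5% near a gene, with 2803 genes and 2 upper jaw factors. With each list cut to its strongest 5682 peaks, 3272 regions were called in all 3 lists and 4346 in lists 2 and 3, 83.5% of the former were near a gene, and 1 upper jaw factor had one. With an overlap of 50% of the shorter peak, 76.9% were near a gene. With near set at 500 bp the share was 70.2%, and at 2.5 kb 82.5%. With starts of genes of known strand, those inside genes included, it was 72.7%, an alternative chosen after seeing the data. With RefSeq starts inside genes counted beside boundaries, also chosen after seeing the data, it was 85.5%. With only regions within 1 kb, or with every gene within 1 kb (also chosen after seeing the data), 1 upper jaw factor had a region.

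Leaving out 1 list at a time gave 5083 to 14267 regions, a median width of 529 to 704.5 bp, 60.4 to 76.7% near a gene, 4705 to 10504 genes and 4 to 27 upper jaw factors. The highest counts and the lowest share near a gene came without sample 1. Without sample 2 the median width was 529 bp. The share of upper jaw factors was below that of all genes in the alternatives run, except without sample 1 (62.8% against 48.6%). The within-list difference in the share near a gene kept its direction in all its alternatives, from 18.7 to 52.3 percentage points. The cause of these changes was not tested, apart from fewer peaks in the first 2. No paired analysis was possible because the samples form 1 group at 1 stage.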

Other observations

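The widest region called in all 3 lists spanned 3041 bp at chr9:124422847-124425887, at the predicted gene Gm20783, with folds of 5.35, 5.05 and 5.01 in lists 1, 2 and 3. Man1a, which encodes a mannosidase of the Golgi, had a region of 2004 bp within 797 bp of its boundary, and App, the amyloid precursor gene, one of 1931 bp. These 3 were not among the strongest, with worst ranks over the 3 lists of 1697, 5126 and 7481. Among all shared regions, the stronger ones were wider: the median width was 869.5 bp for the 100 strongest and 820 bp for the 1000 strongest, against 748 bp for all.

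Chromosomes differed in how many shared regions they held for their genes. Chromosome 12 had 31.8 regions per 100 protein-coding genes, chromosome 3 had 31.3 and chromosome 16 had 30.5. Chromosome X had 16.6, chromosomes 7 and 19 had 17.4 each and chromosome 11 had 17.5. Of the 100 strongest regions, 12 lay on chromosome 1, 11 on chromosome 2 and 10 on chromosome 16, and 0 on chromosomes 14, 19 and X. These are counts with no test.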
